A study of Mus musculus with 4 samples.

Results

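The insulin-like growth factor (IGF) family was examined in nasal process (NP) tissue through 10 genes, picked by symbol from the 13577 genes listed: the ligands *Igf1* and *Igf2*, the receptors *Igf1r* and *Igf2r*, the secreted binding proteins *Igfbp2*, *Igfbp3*, *Igfbp4* and *Igfbp5*, and the mRNA-binding proteins *Igf2bp1* and *Igf2bp3*. All 10 were listed and all 10 passed the filter on low values. Of these, *Igfbp4* was the 1 member called different between the groups, at 0.636 times its control level in ca-*Acvr1(A11)* mutants. *Igf1* was lower by a like amount (0.630 times control) but missed the threshold. Of 52 related genes tested, 2 were called, both higher. They were *Pappa* (2.51 times control), which encodes a protease of IGFBP4, and *Lin28a* (2.06 times control). Over all 12462 genes tested, 0.305% were called higher and 0.594% lower. The call of *Lin28a* was lost in DESeq2, and its log2 fold change fell from 1.15 to 0.53 without control replicate 2.

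In all, 4 bulk libraries from mouse embryos at E11.5 were compared, 2 titled control and 2 titled ca-*Acvr1* mutant. By the study's methods, both groups carried *P0-Cre*, a Cre driver active in neural crest cells, and the mutants also carried 1 copy of the floxed transgene of line A11, in which the CAG promoter drives a constitutively active form of the BMP type I receptor ACVR1 once Cre has acted. The controls had the driver without the transgene, and the colony was of mixed background. Epithelial, neural, endothelial and blood cells of the same tissue were also sampled. How many embryos went into a library, and whether replicates came from separate litters, is not given in the sources used here, so that p-values measure only the spread between these samples.

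The labels conflict on the groups. The genotype entries of the libraries titled control name the transgene, and those of the libraries titled mutant name *P0-Cre* alone. Groups here follow the titles, and each direction would turn round if the genotype entries were the right ones. *Acvr1* was at 21.5 and 23.1 CPM in control and at 24.1 and 12.6 CPM in mutant libraries, which does not settle the question. Whether reads near the 3′ end of *Acvr1* would include RNA of the transgene is not given in the sources used here. CPM expresses the reads of a gene relative to all reads of the library. The libraries held 1956831 to 2408827 reads, so that 1 read was worth 0.415 to 0.511 CPM. Since each transcript was read near its 3′ end, CPM does not grow with transcript length, and levels of different genes are compared in CPM.

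IGF1 and IGF2 are secreted growth factors that act through the tyrosine kinase receptor IGF1R, while IGF2R takes up IGF2 for degradation. IGF binding proteins hold the ligands in the extracellular space and limit or prolong their action, and proteases such as PAPP-A release the ligand by cutting the binding protein. IGF2BP1 and IGF2BP3 are RNA-binding proteins of embryonic tissue that bind *Igf2* and many other mRNAs.

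The sequences upstream of *Igfbp4* and *Igfbp5* are shown because these were the binding proteins with the highest levels, and because the one was called lower while the other was not. RefSeq's promoter table (GRCm38.p6) held a window for 9 of the 10 members. The *Igfbp4* stretch is chr11:99040994-99041243 on the plus strand, directly before the gene (chr11:99041244-99054392). The *Igfbp5* stretch is chr1:72874885-72875115 on the minus strand, directly before the gene (chr1:72857932-72874884), and the 19 bases of its window that lie inside the annotated gene are left out. Capitals mark TATAAA, the core letters of a TATA box. Only exact matches are marked, so the similar letters tatttaaa near the end of the *Igfbp5* stretch are not. A missing mark does not show that a TATA box is absent.
Igfbp4: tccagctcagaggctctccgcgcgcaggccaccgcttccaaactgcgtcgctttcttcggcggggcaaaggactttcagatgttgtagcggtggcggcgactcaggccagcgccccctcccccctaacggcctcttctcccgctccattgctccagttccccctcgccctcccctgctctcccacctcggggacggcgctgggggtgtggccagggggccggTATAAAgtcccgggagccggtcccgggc
Igfbp5: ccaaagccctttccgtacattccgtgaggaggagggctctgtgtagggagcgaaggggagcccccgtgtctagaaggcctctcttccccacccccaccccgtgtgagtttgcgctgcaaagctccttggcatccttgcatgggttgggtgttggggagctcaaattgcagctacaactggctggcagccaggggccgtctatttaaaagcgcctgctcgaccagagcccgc

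In all, 4 motifs were searched on both strands of the 250 bases before each RefSeq start. These starts need not be the gene starts printed here. The *Igf1* window (chr10:87860861-87861110) lies inside the annotated gene. The *Igf1r* window ends at chr7:67952256, before the annotated start at 67952827. The first 3 were GGCGCC and CAGAC, which SMAD proteins are known to bind, and the p53 half-site. None of these 3 was found in the *Igfbp4*, *Igfbp5* or *Igfbp3* window. TATAAA was added afterwards, once the *Igfbp4* sequence had been read, so its match there is no independent finding. It begins 28 bases before the *Igfbp4* start and was found in 1 of 9 members. GGCGCC was found in 2 of 9 members (*Igf1* and *Igf2bp3*), CAGAC in 4 (*Igf1r*, *Igf2*, *Igf2r* and *Igfbp2*) and the p53 half-site in 1 (*Igf2*), a member being counted if any of its windows held the motif. *Igf2* had 4 windows and *Igfbp2* had 2, and counted by window, as the background is, the motifs were in 1 (TATAAA), 2 (GGCGCC), 6 (CAGAC) and 1 (p53 half-site) of 13. Of 32851 windows of all genes, 12.4% held TATAAA, 9.59% GGCGCC, 42.2% CAGAC and 7.13% the p53 half-site. A match is a description of letters, and binding was not measured.

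The members differed widely in level. *Igf2bp1* was at 1391 ± 238 CPM (mean ± SD over all 4 libraries) and *Igfbp3* at 17.1 ± 3.65 CPM, and *Igf2bp1* was above and *Igfbp3* below each other member in all 4 libraries. Between them, *Igfbp4* (517 ± 143 CPM), *Igfbp5* (446 ± 34.1 CPM) and *Igf2bp3* (430.0 ± 31.0 CPM) had overlapping ranges. *Igf2* followed at 325 ± 34.0 CPM, below these 3 and above the remaining members by their ranges. *Igfbp2* (216 ± 29.8 CPM), *Igf1r* (214 ± 18.8 CPM), *Igf1* (185 ± 61.8 CPM) and *Igf2r* (125 ± 14.7 CPM) each overlapped the next in this order.

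**Figure D1:**
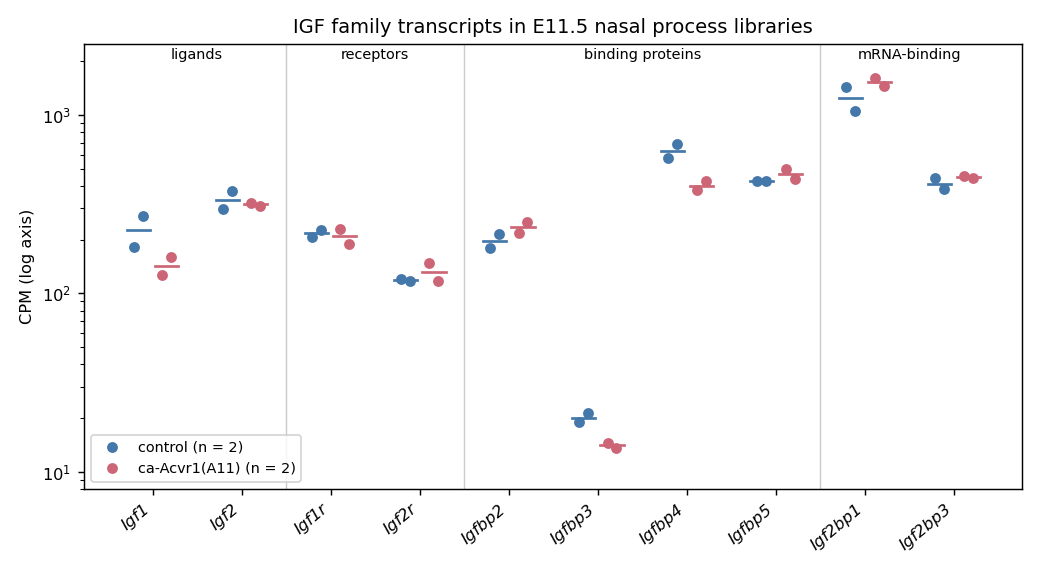
CPM of the 10 IGF family genes on a log axis, with 1 point per library and a bar at each group mean (n = 2 per group). Control and ca-Acvr1(A11) points of Igfbp4 and Igf1 do not overlap, and those of Igf2, Igf1r and Igf2r do.

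Among the ligands, *Igf1* (chr10:87858265-87937042) was at 183 and 271 CPM in control replicates 1 and 2 and at 127 and 159 CPM in mutant replicates 1 and 2. Both mutant libraries were below both controls, with the control libraries far apart. The log2 fold change was −0.64 (SE 0.17, 95% interval −0.99 to −0.30), with an adjusted p of 0.0633 in limma, so *Igf1* was not called. Without control replicate 2 the difference was −0.36 (limma adjusted p = 0.568), and without mutant replicate 1 it was −0.48 (limma adjusted p = 0.471). It was −0.93 without control replicate 1 (limma adjusted p = 4.27e-06) and −0.81 without mutant replicate 2 (limma adjusted p = 0.0130). *Igf1* was called in 6 of the 11 settings that kept all libraries. In bulk tissue, fewer cells that express a gene and less RNA per cell cannot be told apart.

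*Igf2* (chr7:142650766-142666816), the ligand of the embryo's growth that is expressed from the paternal allele, was at 296 and 373 CPM in control and at 323 and 308 CPM in mutant libraries. Both mutant values lay between the control values. The log2 fold change was −0.07 (95% interval −0.37 to 0.22, limma adjusted p = 0.929). *Igf2* reads per *Igf1* read were 1.62 and 1.38 in control and 2.54 and 1.94 in mutant libraries, so *Igf2* exceeded *Igf1* in each library.

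Neither receptor passed the test. *Igf1r* (chr7:67952827-68233668), the signaling receptor, was at 207 and 226 CPM in control and at 231 and 190.0 CPM in mutant libraries, with a log2 fold change of −0.05 (95% interval −0.35 to 0.25). *Igf2r* (chr17:12682406-12769664), the clearance receptor, was at 120.1 and 117 CPM in control and at 147 and 117 CPM in mutant libraries, with a log2 fold change of 0.15 (95% interval −0.17 to 0.46). The groups overlapped for both receptors, and the adjusted p values from limma were 0.957 and 0.848.

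Among the binding proteins, *Igfbp4*, which encodes an inhibitor of IGF action, fell. It was at 573 and 691 CPM in control replicates 1 and 2 and at 378 and 425 CPM in mutant replicates 1 and 2, on 1121, 1556, 911 and 909 reads. Both mutant libraries were below both controls. The means were 632 ± 83.4 and 402 ± 33.4 CPM (n = 2 each), and the log2 fold change was −0.65 (SE 0.14, 95% interval −0.93 to −0.36) with a limma adjusted p of 0.0156. *Igfbp4* was called in each of the 11 settings that kept all libraries (adjusted p 0.00141 to 0.0253, from limma, edgeR and DESeq2), but not without mutant replicate 1, where the difference was −0.56 (limma adjusted p = 0.234).

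Over all 12462 genes tested, limma called 38 higher (0.305%) and 74 lower (0.594%) in mutant libraries, and 1190 (9.55%) had an unadjusted p under 0.05. In the family the counts were 0 higher, 1 lower and 3 with an unadjusted p under 0.05 (*Igfbp4*, *Igf1* and *Igf2bp1*). The groups did not overlap for 7 of the 10 members, 4 higher and 3 lower, against 38.8% of all genes. The median log2 fold change was 0.03 over the members and 0.03 over all genes tested. With 2 libraries against 2, an exact permutation test of 1 gene cannot go below 0.333.

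**Figure D2:**
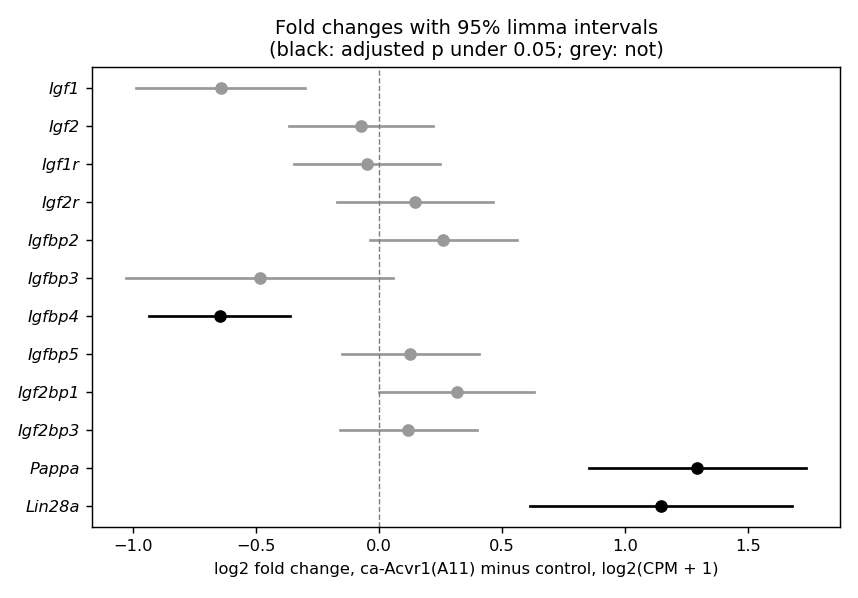
Log2 fold changes of the 10 members and of Pappa and Lin28a, ca-Acvr1(A11) minus control, on the log2(CPM + 1) scale, with 95% limma intervals (n = 2 per group). Black marks an adjusted p under 0.05, which holds for Igfbp4 below 0 and for Pappa and Lin28a above 0.

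The other binding proteins did not pass the test. *Igfbp3* (chr11:7206086-7213923), the main carrier of IGFs in serum, was at 18.9 and 21.3 CPM in control and at 14.5 and 13.6 CPM in mutant libraries, on 29 to 48 reads (log2 fold change −0.49, 95% interval −1.03 to 0.06, limma adjusted p = 0.589). *Igfbp2* (chr1:72824503-72852474) was at 179 and 214 CPM in control and at 219 and 252 CPM in mutant libraries (log2 fold change 0.26, 95% interval −0.04 to 0.56, limma adjusted p = 0.614). *Igfbp5* was at 427 and 425 CPM in control and at 497 and 436 CPM in mutant libraries (log2 fold change 0.13, 95% interval −0.15 to 0.40, limma adjusted p = 0.849). The groups did not overlap for any of the 3, with *Igfbp3* lower and *Igfbp2* and *Igfbp5* higher in mutant libraries. The same held for 38.8% of all genes tested, so it does not by itself mark a change. Leaving out 1 library moved the log2 fold change of *Igfbp2* between 0.13 (without control replicate 1) and 0.39 (without control replicate 2), and that of *Igfbp5* between 0.031 (without mutant replicate 1) and 0.22 (without mutant replicate 2).

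The make-up of the binding protein reads was also compared, on the same reads as the test of *Igfbp4*. A lower *Igfbp4* share raises the shares of the other genes, so these shares are no separate result. *Igfbp4* held 47.8% (95% exact Clopper-Pearson interval 45.8 to 49.8) and 51.1% (49.3 to 52.9) of the reads of the 4 binding protein genes in control libraries, and 34.1% (32.3 to 36.0) and 37.7% (35.8 to 39.7) in mutant libraries. *Igfbp5* held 35.7% and 31.5% in control and 44.8% and 38.7% in mutant libraries. *Igfbp4* therefore exceeded *Igfbp5* in both control libraries, at 1.34 and 1.62 reads per *Igfbp5* read, and was below it in mutant replicate 1, at 0.761. In mutant replicate 2 the ratio was 0.976, and the intervals of the shares, which are parts of the same total, overlap. The 4 genes together summed to 1198 and 1351 CPM in the control libraries against 1108 and 1127 CPM in the mutant libraries. The intervals cover counting error only and leave out the spread between samples. Reads without molecular identifiers are not independent molecules, so that the intervals may be too narrow even for counting error.

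**Figure D3:**
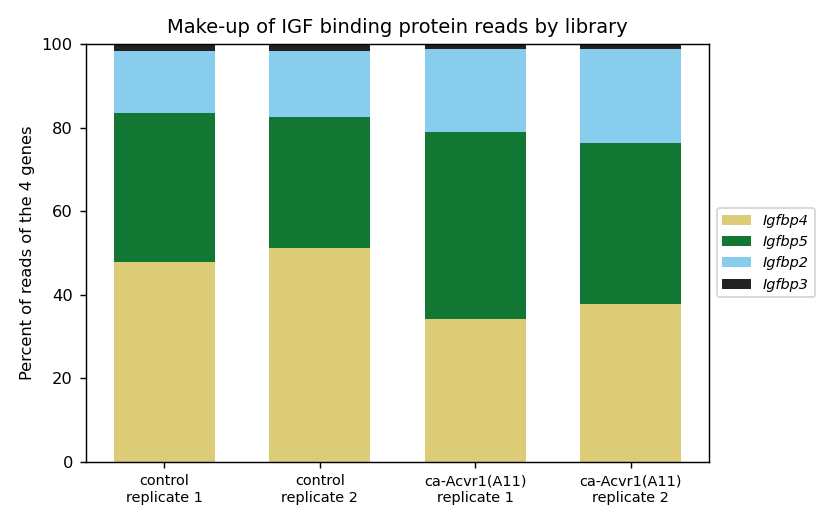
Percent of the reads of Igfbp2, Igfbp3, Igfbp4 and Igfbp5 held by each gene, in 1 stacked bar per library. The Igfbp4 share is 47.8% and 51.1% in the control bars and 34.1% and 37.7% in the ca-Acvr1(A11) bars.

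Markers of the cell types in the tissue moved beside these results. The 11 facial mesenchyme markers, all listed, summed to 1048 and 1310.5 CPM in control and to 599 and 601 CPM in mutant libraries (0.509 times), and 8 of the 11 were called lower. The 12 epithelial markers summed to 283 and 265 CPM against 437 and 398 CPM, with 2 called higher, and the 12 neural markers to 2060.5 and 1817 CPM against 2576 and 2669 CPM, with 1 called higher. The macrophage markers (9 of 10 listed) summed to 51.6 and 48.8 CPM against 78.0 and 114 CPM, with 1 called higher. Endothelial sums (9 of 9 listed) ranged from 197 to 209.5 CPM and erythroid sums (6 of 7 listed) from 6710.3 to 8483 CPM, with overlapping groups, and the muscle markers (5 of 8 listed) did not exceed 16.4 CPM. No listed marker was at 0 in both control libraries. The part of these shifts in the levels of *Igfbp4*, *Igf1*, *Pappa* and *Lin28a* was not tested.

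The mRNA-binding proteins did not pass the test. *Igf2bp1* (chr11:95957163-96005940) was at 1442 and 1053 CPM in control and at 1614 and 1455 CPM in mutant libraries, with control replicate 2 the lowest and mutant replicate 2 just above control replicate 1. The log2 fold change was 0.31 (SE 0.15, limma adjusted p = 0.523), and it was 0.54 without control replicate 1 (limma adjusted p = 0.00314) but 0.088 without control replicate 2 (limma adjusted p = 0.977). *Igf2bp3* (chr6:49085223-49214957) was at 442 and 384 CPM in control and at 452 and 442 CPM in mutant libraries (log2 fold change 0.12, 95% interval −0.16 to 0.40, limma adjusted p = 0.863). Leaving out 1 library at a time moved this value between 0.018 (without control replicate 2) and 0.22 (without control replicate 1). *Igf2bp3* overlaps *Malsu1* on the opposite strand.

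Of 61 further genes in 3 lists, here called the pathway lists, 53 were listed and 52 tested, and 2 were called, both higher. The lists are other IGF system genes, IGF signal transduction and oncofetal RNA regulators. The last holds regulators of RNA, including *Lin28a*, and not IGF genes proper. The median log2 fold change of the 52 genes tested was 0.07, with 35 above 0 and 17 below. Over all 12462 genes tested, 0.305% were called higher, 6752 were above 0 and the median was 0.03. In the list of other IGF system genes, 1 of 12 tested was called higher and the median was 0.38. The gene was *Pappa* (chr4:65124174-65357509), which encodes the metalloproteinase PAPP-A that cuts IGFBP4. It was at 23.0 and 17.8 CPM in control and at 54.0 and 48.2 CPM in mutant libraries, on 45, 40, 130 and 103 reads. Both mutant libraries were above both controls, and the log2 fold change was 1.29 (SE 0.22, 95% interval 0.85 to 1.74, limma adjusted p = 0.000966). *Pappa* was called in all 15 alternative settings. *Igfbp4* reads per *Pappa* read were 24.9 and 38.9 in control and 7.01 and 8.83 in mutant libraries. With *Igfbp4* called lower and *Pappa* higher in these same libraries, the lower ratio follows from the calls and is no separate result.

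In the same list, *H19*, the maternally expressed RNA beside *Igf2*, was at 1423 ± 75.3 CPM in control and 1307 ± 170 CPM in mutant libraries (log2 fold change −0.13, limma adjusted p = 0.861). *Airn*, the RNA that silences the paternal *Igf2r* allele, was at 6.21 ± 0.617 and 8.73 ± 1.75 CPM (log2 fold change 0.42, limma adjusted p = 0.783). *Insr*, the insulin receptor, was at 20.5 ± 4.35 and 16.6 ± 1.70 CPM (log2 fold change −0.27, limma adjusted p = 0.830). None of these 3 passed the test.

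Of the 35 genes of IGF signal transduction tested, limma called 0, and 2 had an unadjusted p under 0.05, against 9.55% of all genes tested. The log2 fold changes ran from −0.34 to 0.63 with a median of 0.04. The smallest adjusted p was that of *Irs4*, an adaptor of the receptor, at 0.394 in limma. *Irs4* was at 49.6 and 20.9 CPM in control and at 54.0 and 47.3 CPM in mutant libraries, and the groups overlapped. *Socs2*, a feedback inhibitor of growth hormone signaling, was at 102 ± 9.65 and 129 ± 1.55 CPM (limma adjusted p = 0.483). *Rptor*, a subunit of the kinase complex mTORC1, was at 9.81 ± 1.31 and 15.01 ± 1.27 CPM (limma adjusted p = 0.570).

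In the list of oncofetal RNA regulators, 1 of 5 genes tested was called higher, against 0.305% of all genes tested. The median was 0.36, with 3 genes above 0 and 2 below, against 0.03 over all genes tested. *Lin28a* (chr4:134003330-134018841), which blocks the maturation of let-7 microRNAs, was at 39.9 and 16.4 CPM in control and at 58.5 and 57.6 CPM in mutant libraries. Both mutant libraries were above both controls, and control replicate 2 was lowest. The log2 fold change was 1.15 (SE 0.26, 95% interval 0.61 to 1.68, limma adjusted p = 0.0226). Without control replicate 2 it was 0.53 (limma adjusted p = 0.455), and without control replicate 1 it was 1.76 (limma adjusted p = 3.01e-10). DESeq2 on the recovered reads gave a log2 fold change of 1.03 with an adjusted p of 0.464, so that the size stayed close and the call was lost.

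**Figure D4:**
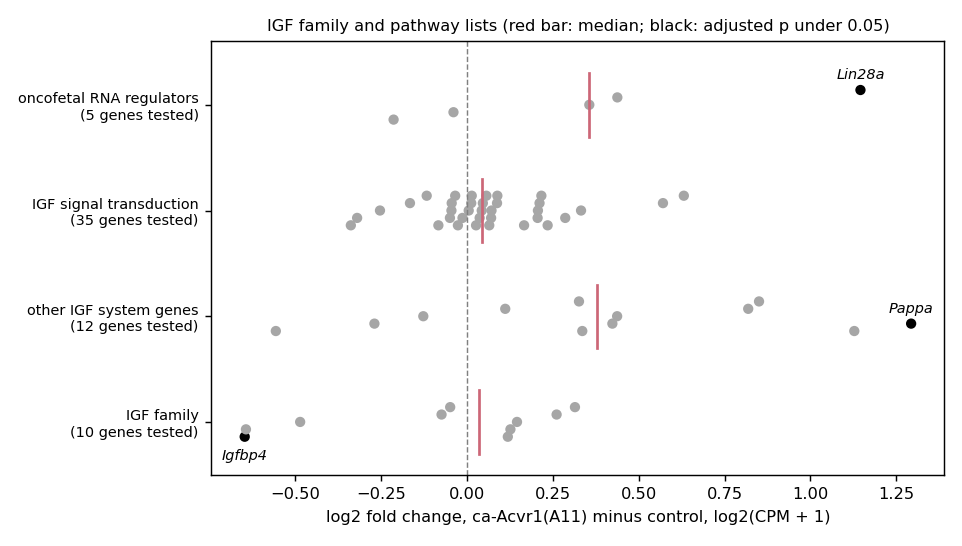
Log2 fold changes, ca-Acvr1(A11) minus control on the log2(CPM + 1) scale, of the 10 members and of the 3 pathway lists, with 1 point per gene and a red bar at each median. The black points, with an adjusted p under 0.05, are Igfbp4, Pappa and Lin28a.

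The profiles most like that of *Igfbp4* over the 4 libraries, by the Euclidean distance of centred log2(CPM + 1) values, were those of *Dll4* (distance 0.0454), *Arntl* (0.0671) and *Angptl1* (0.0735). These genes had between 4 and 27 reads in a library, and none was called.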

How the data were processed

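The authors prepared the libraries with a QuantSeq 3′ kit from Trizol-extracted RNA of E11.5 NP tissues and deposited CPM values, scaled to library totals, for 13577 genes in 4 columns, beside 33470 empty lines. The submitters' processing notes name STAR, featureCounts 1.6.4, DESeq2 and mm10, without their roles. Reads were recovered from the step between values (99.92% whole within 0.02 reads). The 43 values that were not whole lie in 22 genes, none of them a member or pathway gene named here.

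Genes with a mean above 1 CPM (12462) were tested with limma 3.58.1 (R 4.3.3) on log2(CPM + 1) with a mean-variance trend, 2-sided, with Benjamini-Hochberg adjustment over all genes tested at 0.05. Fold changes on this scale understate those of low genes. The test was checked on simulated data. Alternatives (15) were pseudocounts of 0.1 and 5, no filter, at least 10 reads in every library, TMM and RLE scaling, edgeR 4.0.16, DESeq2 1.42.0 and limma-voom on recovered reads, nearest whole-read values, a replicate block and the omission of each library. Intervals of shares used scipy 1.17.1. Figures used matplotlib 3.10.9.

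The members, pathway lists, marker lists and tests were chosen with earlier results of these data known. The genes named were the members, each pathway gene called, the 3 with the smallest p in a list without a call, *H19*, *Airn*, *Insr*, *Acvr1* and the 3 profiles nearest to the member with the smallest p. *Lin28b*, among the closing observations, falls outside this rule and was picked after its values were seen. Motifs were chosen after the values were seen, and TATAAA after the sequence was read. Gene coordinates are from GENCODE's annotation of GRCm38, the build of mm10. All 4 libraries entered the limma fit.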

Additional observations from a re-analysis of the deposited data

How the results depend on the processing

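The 1 member called became 2, with *Igf1* added, without a filter, with TMM or RLE scaling, in edgeR, in limma-voom and with the replicate block, and 0 to 3 when each library was left out in turn (0 without mutant replicate 1). The 2 pathway genes called became 1 (*Pappa*) with a pseudocount of 0.1 and in DESeq2, and 1 to 4 when each library was left out. The 112 genes called in all became 39 in DESeq2, 229 with the replicate block and 93 to 465 when each library was left out (465 without control replicate 1). When each library was left out, the log2 fold change ranged from −0.24 to 0.093 for *Igf2* (above 0 without control replicate 2), from −0.19 to 0.090 for *Igf1r* (above 0 without control replicate 2, at 0.013, and without mutant replicate 2) and from −0.020 to 0.31 for *Igf2r* (below 0 without mutant replicate 1), so that these 3 directions reversed, in values that were not called. The cause was not tested.

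The replicate numbers come from the titles alone. The differences between replicates 1 and 2 correlated between the groups at 0.067 over genes. A low correlation cannot exclude a shared litter or preparation, and with 2 pairs the pairing cannot be checked further. The replicate block gave *Igf1* an adjusted p of 0.00242 in limma. When 1 library is left out, the lone library of its group is assumed to vary like the others. The depth limits *Igfbp3* most among the members, at 29 to 48 reads per library.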

Other observations

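Control replicate 2 differed from the other 3 libraries in several of these genes, which were picked after their values were seen. *Lin28a* was at 16.4 CPM there and at 39.9 to 58.5 CPM in the others, *Irs4* at 20.9 against 47.3 to 54.0 CPM, and *Lin28b* at 71.5 against 89.9 to 116 CPM. *Igf2bp1* was at 1053 CPM there and at 1442 to 1614 CPM in the others. *Igf1* was highest there, at 271 CPM against 127 to 183 CPM. So was *Igfbp4*, the member called, at 691 CPM against 378 to 573 CPM. The facial mesenchyme marker sum was also highest in that library, at 1310.5 CPM, and its neural sum was lowest, at 1817 CPM. The part of these marker levels in the differences between the control libraries was not tested.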
